A study of Mus musculus with 2 samples.

Results

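Of 69549 distinct accessible regions in mouse liver, 870 had a centre more than 200 kb from the closest transcription start site (TSS) in the authors' annotation, and their accessibility was compared between control and Mettl3-HKO livers. These TSS-distant regions were chosen by distance among regions with a peak called in either library. The rule was set with earlier results of these data known. Accessibility was measured by ATAC-seq, in which the Tn5 transposase inserts sequencing adaptors into open chromatin. There was 1 library per group, each pooled from the livers of 4 mice at 8 weeks of age, on a C57BL/6 background and a normal chow diet. The control was Mettl3 flox/flox, without Cre, and Mettl3-HKO was Mettl3 flox/flox Alb-Cre+/-, in which albumin-driven Cre deletes the floxed Mettl3 exons in hepatocytes but not in the other cells of the liver. Effects of Cre itself and of the deletion cannot be told apart, and 1 library per group allows no test over mice. Intervals below are 95% intervals. Those on ratios of single regions cover counting error only, and since PCR duplicates were kept, reads are not independent molecules. Those on medians and shares treat regions as independent, which neighbouring regions of the same libraries are not. They describe the set of regions and do not measure the uncertainty of a genotype effect.

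Gene deserts are long stretches of the genome without protein-coding genes, often beside genes that regulate development. Open chromatin far from any promoter is commonly found at enhancers, which bind transcription factors and can act on promoters over long distances, and at binding sites of the insulator protein CTCF. In the liver, enhancers are bound by hepatocyte factors such as HNF4A, C/EBP and forkhead proteins. METTL3, the enzyme that places N6-methyladenosine on RNA, is the protein lost from hepatocytes in Mettl3-HKO.

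The label of a gene desert held for only some of the 870 regions. In the authors' annotation, 303 lay inside a gene, with the centre in an intron in 297 and in an exon in 6. Against RefSeq genes on GRCm38.p6, 402 lay inside a gene, and for 364 of these the gene was protein-coding. A further 320 lay outside genes but within 200 kb of a RefSeq gene, and 148 were more than 200 kb from the body of any RefSeq gene. Many TSS-distant regions were thus within long genes, far from the single start site the authors gave for each gene. The median distance to the closest TSS was 268 kb, and the farthest was 977 kb.

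Of the 794 members on chromosomes with RefSeq promoter windows in the table used here, 4 overlapped a window, although the authors' annotation had no TSS within 200 kb of them. The sequences under 3 of the 4, all at long noncoding RNA genes, are shown because they are members at which the choice of annotation decides whether a region is distant. The fourth, at the start of a protein-coding gene, is not printed because it includes the 5′ end of an mRNA. The printed sequences are RefSeq promoter windows on GRCm38.p6, cut to the part that overlaps the region, read 5′ to 3′ on the strand of the gene. Capitals mark matches on either strand to the forkhead motif TGTTTAC or the CCAAT box.
Gm30001, chr12:56897549-56897848, plus strand: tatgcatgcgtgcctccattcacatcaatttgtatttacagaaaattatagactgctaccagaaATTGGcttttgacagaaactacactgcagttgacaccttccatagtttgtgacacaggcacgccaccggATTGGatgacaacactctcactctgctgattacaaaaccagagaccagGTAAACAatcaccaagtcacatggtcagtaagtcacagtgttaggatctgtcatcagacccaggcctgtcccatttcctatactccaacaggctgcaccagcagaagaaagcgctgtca
Gm41243, chr14:112721631-112721706, minus strand: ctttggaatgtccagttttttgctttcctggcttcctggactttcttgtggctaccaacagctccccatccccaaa
Gm32865, chr16:87128390-87128581, minus strand: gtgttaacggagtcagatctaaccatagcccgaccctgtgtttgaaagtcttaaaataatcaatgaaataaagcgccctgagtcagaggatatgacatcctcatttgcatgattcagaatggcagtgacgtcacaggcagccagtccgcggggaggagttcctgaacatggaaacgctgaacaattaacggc
The Gm30001 window held both motifs, which occurred in 3.65% and 37.4% of the 32851 RefSeq promoter windows of 300 bases, and the other printed sequences held neither motif. Neither TGTTTAC nor CCAAT overlaps the other. The whole Gm32865 window held 14 CpG dinucleotides, against a median of 7 over all windows, and those of Gm30001 and Gm41243 held 4 and 1. The region at Gm30001 had 242 reads in Mettl3 flox/flox and 184 in Mettl3-HKO, a log2 ratio of −0.53 (−0.82 to −0.25). The region at Gm32865 had 55 and 66 reads (log2 ratio 0.12, −0.41 to 0.67), and that at Gm41243 had 16 and 28 (0.63, −0.26 to 1.66). The fourth was at Pde1a, which encodes a calmodulin-dependent phosphodiesterase, with a CCAAT match and with 45 and 19 reads (−1.34, −2.24 to −0.58). The intervals at Gm32865 and Gm41243 included 0, and those at Gm30001 and Pde1a lay below it. Centred on the median of all regions, the ratio at Gm30001 was −0.15 (−0.44 to 0.13), which included 0, that at Pde1a was −0.96 (−1.86 to −0.20), and that at Gm41243 was 1.01 (0.11 to 2.03), above 0. Scaled to the reads in regions, the interval at Gm32865 lay above 0 (0.10 to 1.18). Centred on the strongest 10% of promoter regions, it also did (0.24 to 1.32), and that at Pde1a included 0 (−1.59 to 0.07).

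Several facts of the whole libraries bear on these values. Of 52826202 reads in the control library 31.7% lay in regions, against 22.3% of 58038305 in the Mettl3-HKO library, and the median region of all 69549 had a log2 ratio of −0.38. The promoter region of Mettl3, which is not itself deleted, had 10.7 and 6.77 reads per 1000000 library reads (RPM), and does not check the genotype. All 8 hepatocyte markers had a promoter region, with summed values of 70.5 RPM in Mettl3 flox/flox and 49.4 in Mettl3-HKO, and 1 of the 8 was at least 2-fold lower. Of 8 endothelial markers, 7 had one, with summed values of 3.03 and 7.01 RPM, and 5 of the 7 were at least 2-fold higher in Mettl3-HKO. For macrophage markers 1 of 8 had a promoter region (C1qa, 0.170 and 0.706 RPM), and for lymphocyte markers none of 8 had one. Of the stellate cell markers, 3 of 8 had a promoter region, with summed values of 15.1 and 4.36 RPM. Only 1 of these was at least 2-fold lower, and their log2 ratios ran from −2.51 to 0.08 with a median of −0.02. Of the cholangiocyte markers, 5 of 8 had one, with 15.8 and 12.1 RPM. Their log2 ratios ran from −0.75 to 1.19, and 1 was at least 2-fold higher. In bulk tissue, a change in the number of cells of a type and a change in accessibility per cell cannot be told apart, and the part of either in the results below was not tested.

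The TSS-distant regions were unevenly spread over chromosomes. Chromosome 16 held 104, or 3.83% of its regions (3.17 to 4.62%, Wilson interval), chromosome 14 held 100 (3.71%), chromosome 15 held 97 (3.45%) and chromosome 18 held 76 (3.32%). The table of RefSeq promoter windows held none on chromosome 18, so these 76 members were not compared with it. Chromosome 7 held 10, or 0.256% of its regions, and chromosome Y held none of 68. Together chromosomes 14 to 19, a grouping made after the values were seen, held 447 members, which were 51.4% of the members but lay on chromosomes with 21.8% of all regions.

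This excess depended on the annotation used. With regions counted instead when they lay more than 200 kb from both ends of every RefSeq gene, chromosomes 14 to 19 had 0.711% of their regions so placed and chromosomes 1 to 13 and X had 0.798%, whereas by the authors' TSSs the shares were 2.94% and 0.780%. Genes without a symbol among the authors' closest TSSs numbered 2.93 per Mb on chromosomes 14 to 19 and 5.41 per Mb on the others. Genes with a symbol were about equally dense, at 5.66 and 5.50 per Mb. Chromosome X also had few genes without a symbol, 2.29 per Mb, but only 0.575% of its regions were members. By both annotations, 75 of the 447 members on chromosomes 14 to 19 were distant, and 181 of the 423 on the other chromosomes. Why the authors' annotation had fewer unnamed genes on chromosomes 14 to 19 was not tested.

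**Figure D1:**
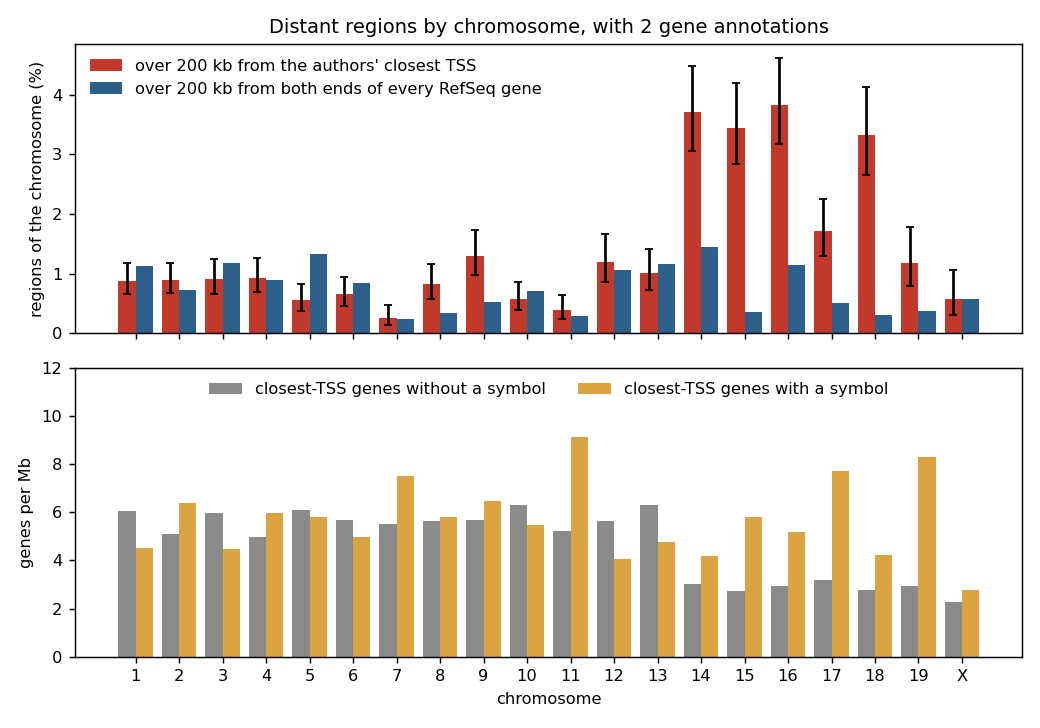
Upper plot, percentage of the regions of each chromosome that were more than 200 kb from the authors' closest TSS (red, with Wilson 95% intervals) and from both ends of every RefSeq gene (blue); lower plot, genes per Mb among the authors' closest TSSs, without (grey) and with (yellow) a symbol. The red bars of chromosomes 14, 15, 16 and 18 exceed 3%, while no blue bar exceeds 1.45%; chromosome Y, with 0 of 68 by the authors' TSSs, is left out.

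TSS-distant regions were shorter and weaker than the 54292 other distal regions, which lay between 1 and 200 kb from a TSS. Their median length was 325 bp (200 to 1665 bp), against 354 bp. In the 5 groups of mean RPM described below, members were not shorter throughout. From the weakest to the strongest group, their median lengths were 206.5, 261.5, 328, 437 and 607 bp. Those of other distal regions were 213, 263, 321, 396 and 620 bp. The median of the mean RPM over both libraries was 0.925 (quartiles 0.545 and 2.03), against 1.26. The median member had 47.5 reads in Mettl3 flox/flox and 52.5 in Mettl3-HKO, whereas the median other distal region had 67 and 68. A peak was called in both libraries at 425 members (48.9%), in Mettl3 flox/flox alone at 192 (22.1%) and in Mettl3-HKO alone at 253 (29.1%). Among other distal regions, a peak was called in both libraries at 56.2%. The 870 regions took up 0.177% of control reads and 0.143% of Mettl3-HKO reads.

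A few members were narrow but very dense in reads. The strongest of all lay in an intron of Il1rapl1, a synaptic adhesion protein, at chrX:87238257-87238521. It had 2511 reads in Mettl3 flox/flox and 2602 in Mettl3-HKO in 265 bp, 490 and 462 times the read density of the genome, and its log2 ratio was −0.08 (−0.16 to −0.0047). A 220 bp region at chr3:147863414-147863633 had 754 and 802 reads, 177 and 172 times the density of the genome. A 218 bp region at chr18:71337223-71337440, within Dcc, which encodes a netrin receptor, had 466 and 717 reads, 111 and 155 times the density of the genome. The longer region of 385 bp at chr18:85697895-85698279 had 196 and 155 times the density of the genome. Density was ranked after the values were seen, and whether repeated sequence lies under these regions was not tested.

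**Figure D2:**
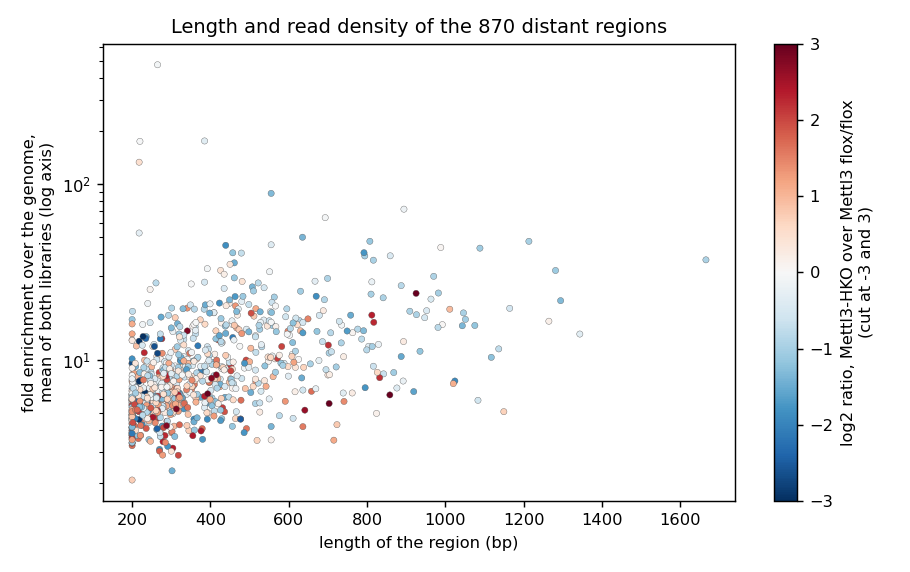
Length of each of the 870 TSS-distant regions (bp) against its fold enrichment over the genome, as the mean of the authors' values in both libraries on a log axis; colour gives the log2 ratio of the knockout to the control library, cut at −3 and 3. The Il1rapl1 region lies at the top left, at 265 bp, and the longest region, of 1665 bp, lies at the right.

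The strongest 10 members by mean RPM were not uniform in their ratio: 3 were at least 2-fold lower in Mettl3-HKO and none was 2-fold higher. By the same rule, 18.3% of all regions were lower and 13.2% higher. Among other distal regions from 2.46 RPM, 23.4% were lower and 2.73% higher. Centred on the median of all regions, none of the 10 was 2-fold lower or higher (−0.94 to 0.44), against 7.89% and 20% of all regions. The Il1rapl1 region ranked first. The region at chr18:85697895-85698279, between genes and 651 kb from its closest TSS, had 1458 reads in Mettl3 flox/flox and 1268 in Mettl3-HKO, a log2 ratio of −0.34 (−0.45 to −0.23). One in the last intron of Gpc5, which encodes the cell-surface heparan sulfate proteoglycan glypican 5, at chr14:116448042-116448935 had 1302 and 1297 reads (−0.14, −0.25 to −0.03). Because the Mettl3-HKO library was the deeper of the pair, equal raw counts correspond to a log2 ratio of −0.14. A pair of regions in introns of Kcnn2, a calcium-activated potassium channel, was close to 2-fold lower: the 1665 bp region at chr18:45558422-45560086, the longest of all members, had 1572 and 889 reads (−0.96, −1.08 to −0.84), and its neighbour at chr18:45569877-45571089 had 1472 and 811 (−0.99, −1.12 to −0.87).

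Among the same 10, the regions that were at least 2-fold lower lay on chromosomes 14, 6 and 12. The region at chr14:114062578-114063132, between genes, had 1353 and 595 reads (−1.32, −1.46 to −1.18). The region at chr6:111368155-111369242, in the last intron of the metabotropic glutamate receptor gene Grm7, had 1229 and 641 (−1.07, −1.21 to −0.94). The region at chr12:94420893-94422173, which was 336 kb from every RefSeq gene end, had 1086 and 557 (−1.10, −1.25 to −0.95). For comparison, regions within 1 kb of a TSS had a median of −0.56. The remaining 2 of the 10 differed little between libraries, with 882 and 923 reads at chr16:73647132-73647824 (−0.07, −0.20 to 0.06) and 811 and 933 at chr3:91483041-91484028 (0.07, −0.07 to 0.20), and both intervals included 0.

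Over all 870 members, about as many regions were at least 2-fold lower in Mettl3-HKO as were 2-fold higher. Lower regions numbered 188, or 21.6% (19.002 to 24.5%), where 18.3% of all 69549 regions were called lower by the same rule. Higher regions numbered 184, or 21.1% (18.6 to 23.99%), where 13.2% of all regions were called higher. The counting interval excluded 0 at 187 of the 188 and at all 184. Among all regions it did so at 12701 of 12714 lower and 9165 of 9209 higher regions. Since regions entered by a called peak and were then picked for a 2-fold difference, this says little about the members. The median log2 ratio of the members was −0.14 (−0.25 to −0.03), the value of equal raw counts, against −0.28 for other distal regions. This direction flipped with the scaling: centred on the median of all regions, a shift of 0.38, the members' median was 0.24, with 11.4% at least 2-fold lower and 29.8% higher, against 7.89% and 20% of all regions centred alike. The share of higher regions therefore exceeded the background, but members were also weaker, and weak regions had higher ratios throughout the data, so the comparison was made within groups of equal signal.

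The difference between TSS-distant and other distal regions of the same signal varied in sign from group to group. The members were divided into 5 groups of 174 by mean RPM. In the weakest group, up to 0.489 RPM, the median log2 ratio was 0.54 for members and 0.82 for other distal regions. In the next 3 groups it was 0.12, −0.0039 and −0.18 for members and 0.16, −0.04 and −0.29 for other distal regions. In the strongest group, from 2.46 RPM, it was −0.64 and −0.61. The members' median minus that of other distal regions thus ran from −0.28 in the weakest group to 0.11 in the fourth. Its average over the groups was −0.04, or −0.05 against other distal regions at 50 to 200 kb, and −0.13 with the groups formed by the control library alone.

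The spread of the ratios was wider among members than among other distal regions of the same signal in each of the 5 groups, with a mean SD of 1.18 against 1.04 on the log2 scale. In the strongest group, where counts are least limiting, 14 of 174 members (8.05%) were at least 2-fold higher in Mettl3-HKO against 2.73% of 15285 other distal regions, and 50 (28.7%) were at least 2-fold lower against 23.4%. This group had no upper limit: members reached 46.2 RPM and other distal regions 3106 RPM, so signal was not matched within it. It took up 33.9% of regions at 1 to 10 kb and 19.4% at 200 to 500 kb. Among regions above its lower limit, the share of higher regions was 1.97% at 1 to 10 kb from a TSS and 3.16% at 10 to 50 kb. It was 3.14% at 50 to 100 kb, 5.10% at 100 to 200 kb and 8.86% (5.35 to 14.3%, Wilson interval) at 200 to 500 kb. Beyond 500 kb it was 0 of 16 regions, with an upper limit of 19.4%. The share was thus highest at 200 to 500 kb but rested there on 14 of 158 regions, and regions that lie near each other are not independent.

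**Figure D3:**
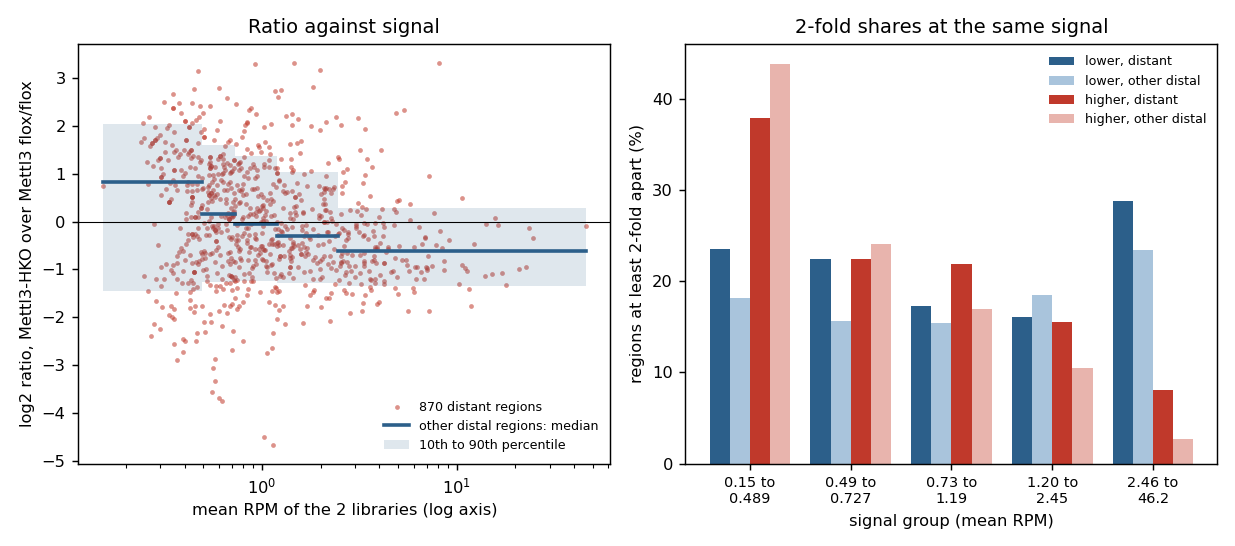
Left, log2 ratio of the knockout to the control library against mean RPM (log axis) for the 870 TSS-distant regions (red points), over the median (blue line) and 10th to 90th percentile (band) of other distal regions in the same 5 signal groups; right, percentage of regions at least 2-fold lower (blue) or higher (red) in each group, with other distal regions in the paler colour. In the strongest group 8.05% of members and 2.73% of other distal regions were at least 2-fold higher.

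**Figure D4:**
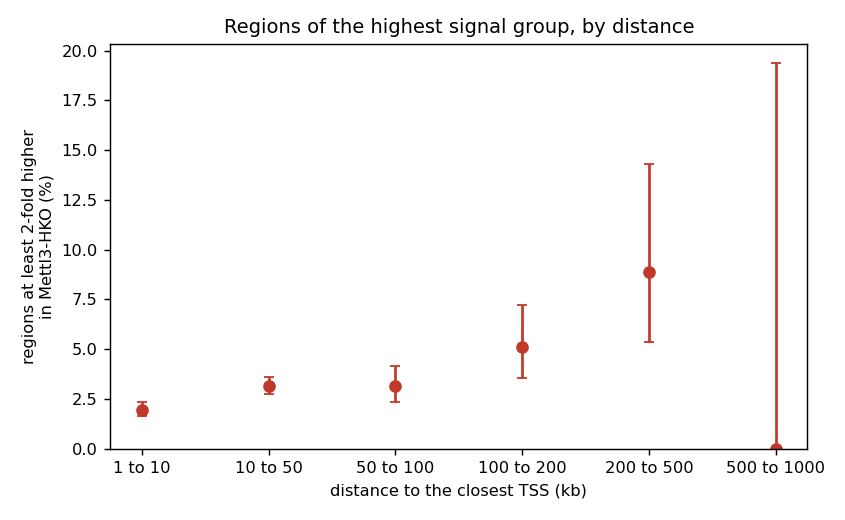
Percentage of regions at least 2-fold higher in Mettl3-HKO, among regions above the lower limit of the strongest signal group, by distance to the closest TSS (kb), with Wilson 95% intervals. The group has no upper limit of signal. The share is 1.97% at 1 to 10 kb and 8.86% at 200 to 500 kb, and the last interval, beyond 500 kb, spans 0 to 19.4%.

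The 57 members more than 500 kb from a TSS had lower ratios. Their median log2 ratio was −0.70 (−0.98 to −0.36), 20 of them (35.1%, against 18.3% of all regions) were at least 2-fold lower and 4 (7.02%, against 13.2%) were higher. At the same signal their median was lower than that of other distal regions by a log2 difference of −0.57. Of these 57, 10 belonged to the cluster on chromosome 14 described below, so they were not independent of each other. Centred on the median of all regions, the median of the 57 was −0.32, with 10 at least 2-fold lower and 6 higher, against 7.89% and 20% of all regions. Scaled to the reads in regions, it was −0.18, with 6 lower and 6 higher. Centred on the strongest 10% of promoter regions, it was −0.05, with 5 lower and 9 higher. None of the 5 farthest members was 2-fold lower or higher. The farthest, at chr18:29295407-29295862 and 977 kb from Pik3c3, a lipid kinase gene of autophagy, had 147 and 144 reads (−0.17, −0.51 to 0.18). The others were 894, 879, 846 and 793 kb from a TSS, with ratios of −0.56, −0.14, 0.10 and −0.91.

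Among the members with the upper 50% of mean RPM, the highest and lowest ratios fell in regions of different shape. The highest was at chr13:29504892-29505594 within Cdkal1, which encodes a tRNA-modifying enzyme, with 13 reads in Mettl3 flox/flox and 152 in Mettl3-HKO (log2 ratio 3.31, 2.59 to 4.35). The next, at chr3:11357348-11358272 and 300.5 kb from the closest RefSeq gene end, had 77 and 851 reads (3.31, 2.99 to 3.69) and was the strongest of these. Regions at chr6:9384172-9385029 (20 and 206 reads, 3.17), chr2:101156892-101157232 (23 and 184, 2.81) and chr6:11309787-11310201 (16 and 125, 2.75) followed. All 5 were between 341 and 925 bp long, and in 4 of them a peak was called in the Mettl3-HKO library alone.

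Within the same upper 50% of mean RPM, the 5 lowest ratios were in regions of 218 to 265 bp, with a peak in the Mettl3 flox/flox library alone. Among the weaker members, ratios reached −3.74. The lowest, at chr19:15473484-15473711, had 114 reads in Mettl3 flox/flox and 4 in Mettl3-HKO (−4.66, −6.87 to −3.57). The next, at chr15:28838550-28838767, 635 kb from the axonemal dynein gene Dnah5, had 102 and 4 (−4.50, −6.71 to −3.41). The remaining 3 had 96 to 101 reads in Mettl3 flox/flox and 15 to 21 in Mettl3-HKO, among them one in an intron of Plxdc2 at chr2:16682985-16683241 (101 and 17 reads, −2.64). Reads of single mice within a pool were not analysed here, and whether these regions differed in all 4 mice of a pool or in 1 was not tested.

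Just inside the 200 kb threshold, at 200.05 to 200.17 kb, lay regions with 24 and 19, 23 and 53, and 479 and 377 reads. Just outside, at 199.3 to 199.7 kb, lay regions with 14 and 25, 31 and 22, and 59 and 53 reads.

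Many TSS-distant regions lay close to each other, but other distal regions did so more often. Adjacent pairs at most 50 kb apart numbered 410 among the 870 members. They numbered 5343 among 9088 other distal regions at 50 to 200 kb and 43006 among all 54292. With neighbours joined when at most 50 kb lay between them, 581 members (66.8%) fell into 171 clusters and 289 stood alone. Of the clusters, 80 were pairs, and 34 with 5 or more members held 234 regions. Members of a cluster often differed in direction: in 10 of 50 clusters with at least 4 members, all ratios had the same sign. The log2 ratios of adjacent members correlated with r = 0.395 over 410 pairs, against 0.331 over 43006 pairs of other distal regions and 0.383 over 5343 pairs at 50 to 200 kb. These pairs share both libraries and neighbouring sequence, and the correlation is a description across regions.

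The largest cluster, of 22 regions, spanned 149 kb within Pde4d, which encodes a cAMP phosphodiesterase, at chr13:109536762-109686146. It had 5401 reads in Mettl3 flox/flox and 2651 in Mettl3-HKO, and the median log2 ratio was −1.01 (−2.28 to 0.95 over the regions). Of its 22 regions 11 were at least 2-fold lower and none was 2-fold higher, against 18.3% and 13.2% of all regions. The strongest, at chr13:109599554-109600188, had 885 and 368 reads (−1.40, −1.58 to −1.22), and the most reduced of those with over 500 reads in Mettl3 flox/flox, at chr13:109604030-109604468, had 595 and 179 (−1.86, −2.12 to −1.63). The first 16 regions along the chromosome all had a ratio below 0. The 4 with a ratio above 0 lay together further along, among the last 6 regions, and had at most 50 reads in Mettl3 flox/flox.

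The second largest cluster, of 20 regions, spanned 173 kb in introns of Rad51b, a gene of homologous recombination, at chr12:79503636-79676256. It had 2502 and 3116 reads and a median log2 ratio of 0.48 (−0.68 to 2.19), with 5 regions (25%) at least 2-fold higher and none lower, where 13.2% and 18.3% of all regions were so called. The largest increase in reads was at chr12:79600083-79600680, with 87 and 272 (1.498, 1.16 to 1.87). The region at chr12:79649197-79649854 had 39 and 140 (1.68, 1.19 to 2.26). The strongest regions of the cluster differed less: at chr12:79531692-79532955 there were 380 and 470 reads (0.17, −0.03 to 0.37), and at chr12:79674914-79676256, the second longest member at 1343 bp, 406 and 351 (−0.35, −0.56 to −0.14). The 5 regions that were at least 2-fold higher had a mean of 0.473 to 3.18 RPM, below the strongest of the cluster.

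The third cluster, of 10 regions, spanned 191 kb at chr14:114031212-114221823. Every region was outside gene bodies and over 500 kb from a TSS of the authors, but the span held the RefSeq pseudogene Gm18369 of 572 bases. It had 2913 and 1532 reads, a median log2 ratio of −1.07 (−1.60 to 0.71), and 5 regions at least 2-fold lower, where 18.3% of all regions were. The region with 1353 and 595 reads named above was its strongest, followed by chr14:114166004-114166819 with 770 and 429 (−0.98, −1.15 to −0.81) and chr14:114220707-114221823 with 312 and 145 (−1.24, −1.54 to −0.95). Only chr14:114211277-114211621, with 19 and 35 reads, had a ratio above 0 (0.71, −0.10 to 1.63). The calls in the clusters depended on the scaling. Centred on the median of all regions, 7 of the 22 Pde4d regions were at least 2-fold lower and 2 higher (median −0.64), 9 of the 20 Rad51b regions were higher and none lower (0.86), and 1 of the 10 on chromosome 14 was lower and 1 higher (−0.69), where 7.89% of all regions were lower and 20% higher. Without the largest 2 clusters, a setting chosen after seeing the data, 21.4% of the remaining 828 members were at least 2-fold lower and 21.6% higher, against 18.3% and 13.2% of all regions.

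**Figure D5:**
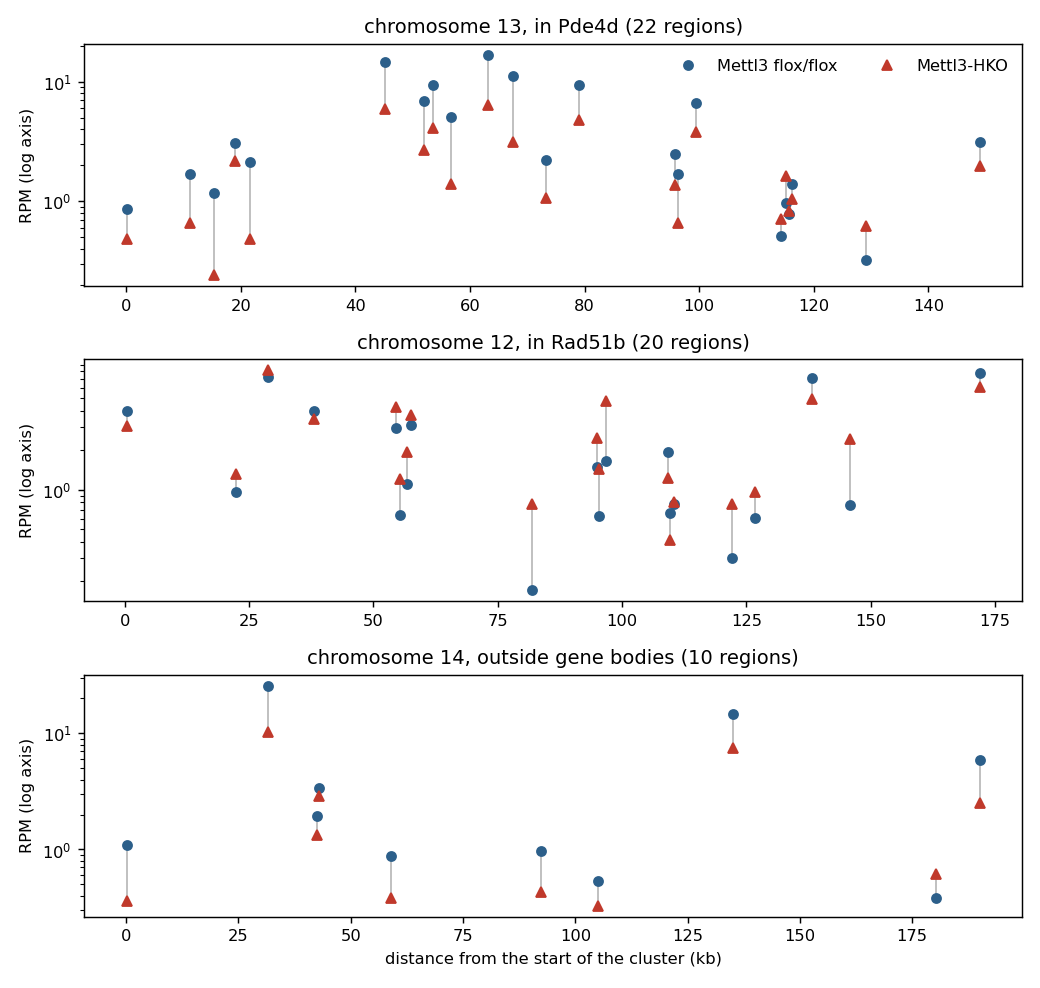
RPM (log axis) of each region in the 3 largest clusters against its distance from the start of the cluster (kb), in Mettl3 flox/flox (blue circles) and Mettl3-HKO (red triangles), with a grey line between the libraries. In the Pde4d cluster 18 of 22 regions have the triangle below the circle, in the Rad51b cluster 6 of 20, and in the chromosome 14 cluster 9 of 10.

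The 364 members within protein-coding genes lay in 121 RefSeq genes, counting every gene over those members, with a median length of 592 kb. The 38 members in noncoding genes only were left out of this count. Ranked after the values were seen, Pde4d held the most (24 regions, of which 11, or 45.8%, were at least 2-fold lower and none higher, where 18.3% of all regions were lower), followed by Rad51b with 20 and Rora with 12. The glypican genes Gpc5 and Gpc6 held 11 and 10, with medians of −0.56 and −0.47. In Astn2, which encodes a protein of neuronal migration, all 8 regions had a ratio below 0 (−2.04 to −0.36). In Grid1, a glutamate receptor gene of the delta family, all 6 regions were below 0 and 4 were at least 2-fold lower. In Dpyd, which encodes the first enzyme of pyrimidine breakdown, all 6 regions were above 0 (0.52 to 2.33) and 3 were at least 2-fold higher, where 13.2% of all regions were higher. Centred on the median of all regions, 7 of 8 Astn2 regions and 5 of 6 Grid1 regions were below 0, and all 6 in Dpyd were above 0. Of the Grid1 regions, 3 were then at least 2-fold lower, against 7.89% of all regions. Scaled to the reads in regions or centred on the strongest 10% of promoter regions, none of the 6 in Grid1 was. Under the centring on strong promoter regions, the medians of Gpc5 and Gpc6 turned to 0.08 and 0.18. Members of 1 gene share their location and are not replicates.

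By the authors' closest TSS, the 870 regions belonged to 378 genes, of which 260 had no symbol in the deposited table. For 543 regions the closest gene had no symbol. The counts below stand against 18.3% of all regions called lower and 13.2% called higher. The gene closest to the most members, ENSMUSG00000076946, had 14 regions in the Pde4d introns, 10 of them at least 2-fold lower, with a median of −1.35. Rad51b was closest to 12, with a median of 0.63. ENSMUSG00000086415 on chromosome 14 was closest to 11 regions (median −0.70, 5 lower and 1 higher), and unnamed genes on chromosomes 15 and 16 to 11 each (medians −0.86 and −0.12). Trim32, a ubiquitin ligase gene within Astn2, was closest to 10, all with a ratio below 0 and 5 at least 2-fold lower. Pde4d itself was closest to 10 regions (median −0.54, 1 lower), another unnamed gene on chromosome 14 to 9 (−0.41, 2 lower), the cadherin gene Cdh9 to 9 (−1.22, 7 lower and 1 higher) and the axon guidance receptor gene Robo1 to 9 (−0.11, 2 higher). When centred on the all-region median, 8 of the 10 regions closest to Trim32 were below 0 and 2 were at least 2-fold lower, and 4 of the 9 closest to Cdh9 were, against 7.89% of all regions.

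Genes that commonly border gene deserts or are long were counted over 3 lists. Of 60 developmental transcription factors, 8 had a member closest to or within them, with 23 members in all, and 6 of the 23 were at least 2-fold lower and 5 higher (median −0.31, against −0.14 over all members). These shares of 26.1% and 21.7% compare with 21.6% and 21.1% of all members and with 18.3% and 13.2% of all regions. All 5 regions in Foxp2, a forkhead factor, had a ratio below 0 (−1.44 to −0.75), and also under each of the 3 other scalings, with 292 and 148 reads at chr6:15185292-15185774 and 278 and 112 at chr6:15185918-15186444. Near Gata6, a zinc finger factor of endoderm, there were 5 regions 217 to 300 kb from its TSS, with a median of 0.70. Of these, 2 were at least 2-fold higher, with 13 and 30 and with 6 and 25 reads, and the strongest, with 121 and 114 reads, had a ratio of −0.22. In Sox6, an HMG-box factor, 3 of 6 regions were at least 2-fold lower and the other 3 lay between −0.09 and −0.0033. The 3 lower ratios were −1.20, −1.07 and −1.05. Centring on the median of all regions, a shift of 0.38, brings each within 2-fold and the other 3 above 0.

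The neuronal adhesion, guidance and synapse genes had 91 members, 10.5% of the total, with 24 at least 2-fold lower and 24 higher (median 0.14). That was 26.4% each way, against the same 18.3% lower and 13.2% higher of all regions. The cadherin genes Cdh6 and Cdh9 had 9 each, with 6 and 7 at least 2-fold lower, whereas in or near Cntnap5a, a neurexin-family gene, all 5 were above 0 and 3 were at least 2-fold higher. Of 80 genes of liver function and hepatocyte regulation, 3 had any member, with 14 members in all, of which none was at least 2-fold lower and 5 (35.7%) were higher (median 0.38). Of those 14, 12 were in or near Rora, a nuclear receptor gene of lipid metabolism and the circadian clock, and 1 each near Sdc2 and Tox3. The 3 Rora regions with the most reads were lower in Mettl3-HKO, with 513 and 296 (−0.93), 481 and 274 (−0.95) and 424 and 242 reads (−0.94). The 3 Rora regions that were at least 2-fold higher were weak in the control, with 16 and 55, 27 and 83, and 21 and 58 reads. Of the rest, the strongest had 136 and 176 reads (0.23), and regions with 49 and 44 and with 34 and 28 reads had ratios of −0.29 and −0.41.

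Ratios were also unevenly spread over chromosomes, where 18.3% of all regions were called lower and 13.2% higher. The 44 members on chromosome 1 had a median log2 ratio of 0.90, with 19 (43.2%) at least 2-fold higher and 6 (13.6%) lower, while the other distal regions of that chromosome had a median of −0.24. On chromosome 2, 17 of 48 members (35.4%) were 2-fold higher or more, and 3 (6.25%) were lower by that much. On chromosome 13 the median of 34 members was −0.79 and 13 (38.2%) were at least 2-fold lower, but 22 of the 34 belonged to the Pde4d cluster. The 447 members on chromosomes 14 to 19 had a median of −0.25 (−0.39 to −0.12), and the 423 on the other chromosomes 0.06 (−0.14 to 0.19). When centred on the all-region median, these medians were 0.12 and 0.43, both above 0, and chromosome 13 had 8 members (23.5%) at least 2-fold lower and 8 higher, against 7.89% and 20% of all regions, whereas the median on chromosome 1 was 1.28. The 148 members over 200 kb from every RefSeq gene body had a median of −0.04 (−0.30 to 0.25), with 35 (23.6%) at least 2-fold lower and 38 (25.7%) higher.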

How the data were processed

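ATAC-seq was analysed for 1 Mettl3 flox/flox and 1 Mettl3-HKO library, each from 4 pooled mice. The authors trimmed adaptors with skewer, aligned reads with BWA to GRCm38, kept properly paired, non-mitochondrial reads and called peaks in each library with MACS2, duplicates kept. The method of counting on merged regions and any shift of read ends for the Tn5 cut are not given in the sources used here. The authors deposited raw counts per region, RPM values and a fold enrichment, the ratio of read density in the region to that of the genome. The log2 column the authors deposited holds their own comparison and was not used. The RPM of the authors equals the count plus 1 over 52826202 and 58038305 reads, totals recovered from the values.

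Repeats of a region (5272 of 74821 lines) were left out. Log2 ratios were computed as Mettl3-HKO over Mettl3 flox/flox from counts with 1 read added, scaled to the library totals. With 1 library per group no p-value was computed, and a region was called at a 2-fold difference. Intervals were exact Clopper-Pearson for ratios, Wilson for shares and order-statistic for medians, at 95%. Medians over groups of regions were compared within 5 groups of mean RPM. On simulated counts for all regions, 100% of 200 regions changed 4-fold passed the 2-fold rule. Named regions were the 10 with the highest mean RPM, the 5 highest and 5 lowest ratios in the upper 50% of mean RPM, the 5 farthest, the 3 longest, 3 on either side of the threshold, the 3 largest clusters and the 10 closest genes with the most members. Members, lists and this rule were chosen with earlier results of these data known. RefSeq gene positions and promoter sequences were on GRCm38.p6. Alternatives changed the distance, scaling, added reads, signal and peak filters, groups and cluster gap. The software was pandas 2.3.3 and scipy 1.17.1 under Python 3.11.15.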

Additional observations from a re-analysis of the deposited data

How the results depend on the processing

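With 1 library per group, differences between libraries cannot be told from differences between genotypes, and weak regions of about 50 reads limit single ratios. No paired analysis was possible because each group had 1 library. The members' median log2 ratio of −0.14 reversed when scaled to the reads in regions (0.38), centred on the median of all regions (0.24) or centred on the strongest 10% of promoter regions (0.51). Under the same 3 scalings, the share at least 2-fold lower was 8.39%, 11.4% and 7.59% and the share higher 33.1%, 29.8% and 36.4%, while the difference from other distal regions of the same signal did not move, since a scaling shifts both sets alike. Members over 500 kb had a median of −0.70, with 35.1% lower, 7.02% higher and a difference of −0.57. In the 272 members above the middle of mean RPM over all regions (1.54 RPM), a higher limit than that of the members alone, the median was −0.50, with 25% lower and 8.82% higher, and with a peak in both libraries −0.34, with 17.2% and 7.53%. With 10 reads added, 16.9% were lower and 11.7% higher. Among members over 200 kb from every RefSeq gene body, an alternative chosen after seeing the data, 25.7% were higher and the difference was −0.19. The number of members was 3594 over 100 kb, 57 over 500 kb, 425 with a peak in both libraries and 468 outside every RefSeq gene body. The clustered share was 56.2% with a gap of 25 kb and 76.7% with 100 kb. The median length was 457 bp with a peak in both libraries and 385 bp over 500 kb. Apart from the causes shown by the scalings' construction, the cause of these shifts was not tested. The difference at the same signal moved by less than 0.109, the half-width of the interval of the members' median, in 14 of 16 alternatives, 3 of them the scalings that cannot move it.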

Other observations

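RefSeq and the authors' annotation did not mark the same regions as distant. More than 200 kb from both ends of every RefSeq gene there were 557 regions, of which 256 were among the 870 and 301 were not. The 301 had a median length of 328 bp and a median of 47 reads in Mettl3 flox/flox and 45 in Mettl3-HKO. Their median log2 ratio was −0.09 (−0.31 to 0.08), with 72 (23.9%) at least 2-fold lower and 62 (20.6%) higher, against 18.3% and 13.2% of all regions. Chromosome 5 held 55 regions distant by RefSeq, of which 13 were also distant by the authors' TSSs, and chromosome Y held 16 of its 68 regions, none of which was.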
